A study of Mus musculus with 3 samples.

Results

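Imprinted genes are expressed mainly from 1 parental copy, because DNA methylation or repressive chromatin was set differently in the egg and the sperm. They lie in clusters that share an imprinting control region, and many act on fetal and placental growth and on metabolism. A list of 43 mouse imprinted genes of 17 loci was followed from embryonic stem cells to early hepatic cells. Members were found by gene name, or by an older name checked against the probe's transcript accession, in the annotation of the arrays. Of the 43 genes, 42 had at least 1 probe (83 probes of 41174 gene probes in all), and 40 were well above background on at least 1 array, among 21653 gene names that were. Rtl1, a retrotransposon-derived placental gene of the Dlk1-Dio3 locus, had no probe assigned to it. The parental copy named for each gene is background knowledge of the mouse, since these probes do not tell the copies apart.

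RNA from E14.1, a mouse embryonic stem (ES) cell line, was hybridised to one-colour Agilent arrays, with 1 array for each of 3 days. Day 0 was the ES cells, held without serum in N2/B27 medium with LIF and BMP4 on gelatin. Day 5 was ES cell-derived definitive endoderm, the germ layer that gives rise to liver, pancreas and gut, grown on collagen IV with activin A replacing LIF and BMP4. Day 7 was ES cell-derived early hepatic cells, cultured for 2 more days with BMP4 and bFGF beside activin A. No genetic change is named, so all groups share the E14.1 background and the N2/B27 medium. There were no replicates, so no test was possible, and every difference is a difference between 2 arrays. In RNA from mixed cells, a smaller number of cells of a type and less RNA per cell cannot be told apart. The comparisons of day 5 and of day 7 with day 0 share the day 0 array.

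The labels were set against cell type markers. All 8 pluripotency markers were lower by 2-fold or more on both later days than on day 0, and all 8 definitive endoderm markers were higher on both days. Of 8 hepatic markers, 7 were higher on day 7 than on day 0, while the probe for albumin (Alb) stayed dim that day. Already on day 5, 6 of the hepatic markers were higher than on day 0. From day 5 to day 7, 5 hepatic markers were higher and 1 lower, and 6 of the definitive endoderm markers were lower. Markers of other cells were read on the same arrays. Among all names, 16.5% were higher and 16.1% lower on day 5 than on day 0. On day 7, 16.2% were higher and 19.1% lower than on day 0, and 5.97% were higher and 8.38% lower than on day 5. The summed signal of 16 extraembryonic endoderm markers, in units of each array's 75th percentile, came to 82.9, 148 and 350 on days 0, 5 and 7, and all 16 were well above background on every array. For 18 fibroblast and mesenchyme markers it was 37.1, 58.6 and 108 on days 0, 5 and 7, with Fap not well above background on any of them. Of these, 15 extraembryonic endoderm and 13 mesenchyme markers were higher on day 7 than on day 0, with Sparc (131 units) and Vim (60.01 units) the largest single contributors on day 7. Of 14 trophoblast markers, 11 had a probe, and Prl2c2, Gcm1 and Syna did not. Their sum was 12.0, 17.2 and 15.3 on days 0, 5 and 7, while single genes moved in opposite directions. Krt7 made up 12.5 units on day 5 and was 15.4-fold lower on day 7 than on day 5, whereas Hand1 was 15.6-fold and Plac1 10.0-fold higher on day 7 than on day 5. Synb was not well above background on any day. Of 12 neural markers, 2 (16.7%) were higher and 3 (25.0%) lower on day 7 than on day 0. Their sums of 15.9, 50.9 and 14.3 on days 0, 5 and 7 were mostly Otx2 (46.8 units on day 5). Of 12 cardiac and lateral mesoderm markers, 10 were higher and 1 lower on day 7 than on day 0. Their sums of 6.92, 31.4 and 12.2 were mostly Myl7 on day 5 (29.0 units), and 7 of the 12 were higher on day 7 than on day 5. The part of these cell types in the differences described here was not tested.

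Signals are given as log2 of the processed intensity minus the array's 75th percentile, so 0 is that percentile, and a difference of 1 is 2-fold. A gene was called higher or lower at 2-fold with its probe well above background on the brighter array. Over all genes measured on both arrays, the median log2 difference was -0.13 for day 5 minus day 0, -0.20 for day 7 minus day 0 and -0.09 for day 7 minus day 5. Apart from the marker sums above, levels of different genes are not compared, because probes differ in how well they bind. The marker sums and their largest contributors also depend on that binding.

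More of the 43 imprinted genes on the list were higher than lower after differentiation. On day 5, 17 of the 43 were at least 2-fold higher than on day 0, against 16.5% of all names tested, and 3 were lower, against 16.1%. On day 7, 24 were higher than on day 0, against 16.2%, and 4 were lower, against 19.1%. Between day 7 and day 5, 11 were higher on day 7, against 5.97%, and 5 were lower, against 8.38%. As shares of the 43, the higher genes were 39.5%, 55.8% and 25.6% in these comparisons, and the lower ones 6.98%, 9.30% and 11.6%. The 43 include Rtl1, which had no probe, and Zim1 and Slc22a3, which were above background on no array. All names tested were above background on at least 1 array, so the shares of the 43 are slightly smaller than on that base. The median log2 difference of the 40 measured genes was 0.56 for day 5 minus day 0 and 1.68 for day 7 minus day 0. For day 7 minus day 5 it was -0.05, and it lay on either side of 0 with the scaling used. Of 23 genes with several probes, 7 had probes that differed in their call on day 5 relative to day 0, as did 7 on day 7 relative to day 0. Only 2 did between the later days. Calls in opposite directions occurred for Ppp1r9a only.

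**Figure D1:**
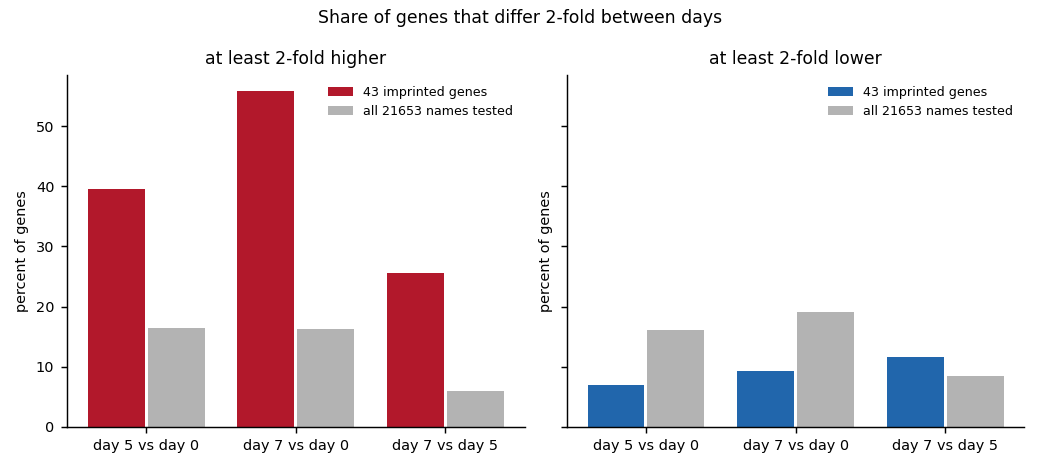
Percent of genes at least 2-fold higher (left) or lower (right) in each comparison of days, for the 43 imprinted genes (coloured bars) and for all 21653 names tested (grey bars), with 1 array per day. The imprinted genes stand above all names in the share that is higher (39.5% against 16.5% for day 5 against day 0) and below them in the share that is lower in both comparisons with day 0.

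The genes followed several courses over the 3 days. Igf2, Peg3 and Dlk1 were higher on day 5 than on day 0 and higher again on day 7 than on day 5. Grb10, Asb4, Calcr and Peg12 were higher on day 5 than on day 0 and lower on day 7 than on day 5, and 10 genes were higher on day 5 with no 2-fold difference afterwards. H19, Igf2r, Cdkn1c, Peg10 and Slc38a4 passed 2-fold only in the step to day 7, where all 5 were higher. Plagl1, Phlda2 and Tspan32 were lower on day 5 than on day 0 and higher on day 7 than on day 5. Ascl2 passed 2-fold only between day 5 and day 7, where it was lower on day 7. The other 14 passed 2-fold in neither step, though 4 of them did between day 7 and day 0.

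**Figure D2:**
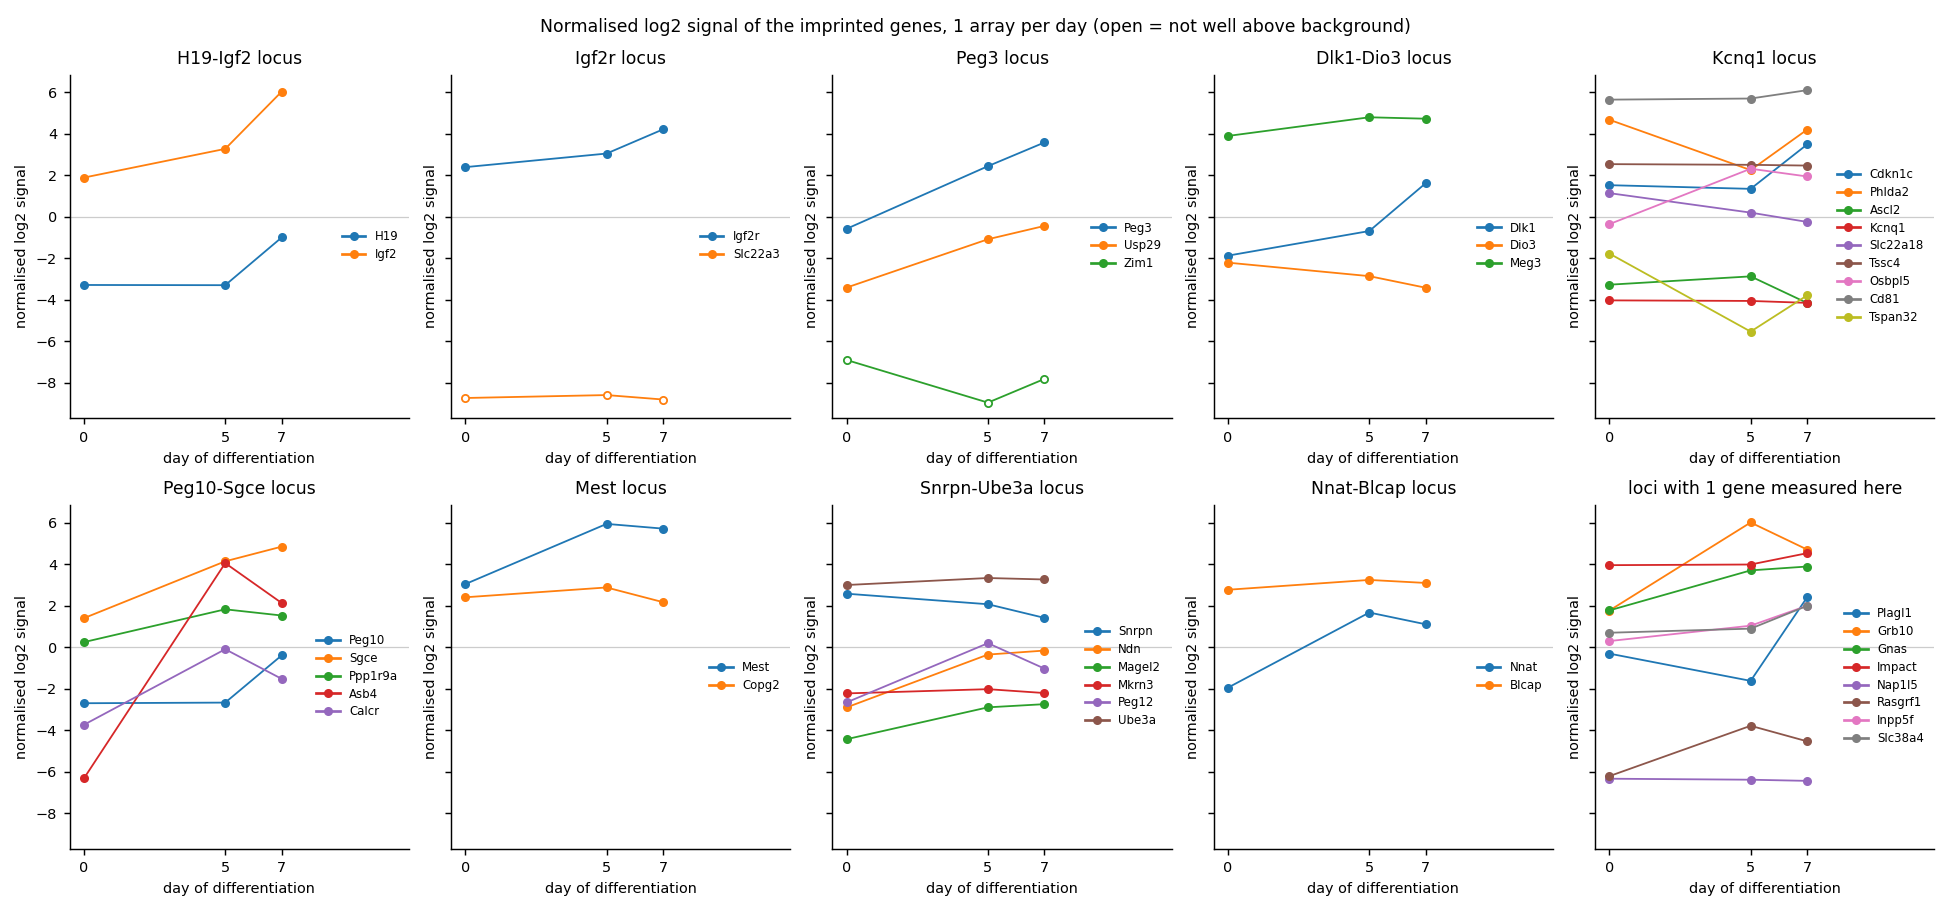
Normalised log2 signal (vertical axis) of the 42 imprinted genes with a probe against the day of differentiation (horizontal axis), 1 array per day, with a panel for each locus that has several genes and 1 panel for the rest. Filled points were well above background and open points were not. Each line is to be read along the days, not against other lines, as for Igf2 at 1.89, 3.27 and 6.04.

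The H19-Igf2 locus holds Igf2, the paternally expressed insulin-like growth factor of the fetus, and H19, a maternally expressed noncoding RNA. The 60-base H19 probes are printed because the noncoding RNA is known here only through them. The first was used for the gene and lies at chr7:149761769-149761828 of mm9, and the second spans chr7:149762018-149762165, a stretch longer than the probe, both on the minus strand.
H19 probe 1: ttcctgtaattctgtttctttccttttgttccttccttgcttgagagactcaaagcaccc
H19 probe 2: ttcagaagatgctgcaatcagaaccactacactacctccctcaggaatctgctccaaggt
Igf2 had a normalised log2 signal of 1.89 on day 0, 3.27 on day 5 and 6.04 on day 7. Its probe was printed as 10 spots per array, whose SD was 0.07, 0.06 and 0.11 on those days (spots of 1 array, not replicate samples). Igf2 was thus 2.61-fold higher on day 5 than on day 0 and 17.7-fold higher on day 7 than on day 0, and its second probe gave 2.85-fold and 23.3-fold. H19 probe 1 read -3.28 on day 0, -3.29 on day 5 and -0.99 on day 7. H19 was therefore level between day 5 and day 0 and 4.90-fold higher on day 7 than on day 0. Probe 2 showed the same course, with log2 differences of -0.22 for day 5 minus day 0 and 1.88 for day 7 minus day 0.

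Igf2r, the maternally expressed receptor that clears Igf2 and carries tagged enzymes to lysosomes, read 2.39 on day 0, 3.05 on day 5 and 4.21 on day 7. It was 1.58-fold higher on day 5 and 3.54-fold higher on day 7 than on day 0. Slc22a3, an organic cation transporter of the same locus that is imprinted in placenta, was not well above background on any day. Grb10, an adaptor that dampens signalling from insulin and IGF receptors, went the other way after day 5. Grb10 read 1.76 on day 0, 6.0 on day 5 and 4.70 on day 7. Day 5 was 18.95-fold above day 0, while day 7 was 2.47-fold below day 5. Its 3 probes, spread over chr11:11830965-11870633 of mm9, gave log2 differences of 3.30 to 4.92 for day 5 minus day 0 and of 2.16 to 3.27 for day 7 minus day 0.

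Other genes of the insulin-like growth factor pathway were read from a list of 20. Of these, 11 were higher and 1 lower on day 5 than on day 0, against 16.5% and 16.1% of all names, and 11 were higher and 0 lower on day 7 than on day 0, against 16.2% and 19.1%. Largest among those measured on both arrays were the receptor substrates Irs4 and Irs1 and the binding protein Igfbp5. For day 7 minus day 0 they were 7.09 for Irs4, 5.39 for Igfbp5 and 4.77 for Irs1 on the log2 scale, and for day 5 minus day 0 they were 8.02, 4.52 and 4.15. Igfbp7, which also binds growth factors, was 4.85-fold lower on day 5 than on day 0. Igf1, the liver-derived growth factor of later life, was not well above background on day 0 and was at least 62.1-fold higher on day 7. Between day 7 and day 5, 2 of the 20 were higher and 1 lower on day 7, against 5.97% and 8.38% of all names.

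In the Peg3 locus the paternally expressed neighbours Peg3, a zinc finger protein, and Usp29, of a family of ubiquitin-specific peptidases, were both higher. Peg3 had a normalised log2 signal of -0.58 on day 0, 2.44 on day 5 and 3.58 on day 7. It stood 8.10-fold higher on day 5 and 17.9-fold higher on day 7 than on day 0. A second Peg3 probe gave log2 differences of 3.17 and 4.37 against day 0, and another, not well above background on day 0, gave bounds of 0.41 and 1.87. Usp29 read -3.41, -1.08 and -0.44 on days 0, 5 and 7, or 5.02-fold higher on day 5 and 7.84-fold higher on day 7 than on day 0. Its second probe had log2 differences of 1.26 on day 5 and 2.14 on day 7. Zim1, a maternally expressed zinc finger gene of the locus, was not well above background on any array.

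The start sites of Peg3 and Usp29 lie head to head, so their promoter windows (250 bases before to 50 after the start, from RefSeq, GRCm38.p6) overlap in 263 of 300 bases. The Peg3 window is printed because both genes were higher and share it. It lies at chr7:6730370-6730669 on the minus strand, and capitals mark TGACGTCA, the letters of the cAMP response element.
Peg3 promoter window: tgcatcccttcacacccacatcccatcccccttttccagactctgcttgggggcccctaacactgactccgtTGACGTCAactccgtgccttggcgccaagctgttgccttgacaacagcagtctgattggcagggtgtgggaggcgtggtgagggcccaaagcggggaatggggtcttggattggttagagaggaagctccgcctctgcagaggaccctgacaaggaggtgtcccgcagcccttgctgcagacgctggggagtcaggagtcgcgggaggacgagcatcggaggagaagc
These letters read the same on both strands and were found in 5.36% of 56 windows of 36 imprinted genes and in 1.79% of all 32851 windows. The imprinted windows that hold them are those of Peg3, Usp29 and Meg3, of which the first 2 are largely 1 sequence, and the motif was chosen after the windows had been read. A match is only a run of letters, and binding was not measured.

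The Dlk1-Dio3 locus showed a different course for each gene. Dlk1, a paternally expressed transmembrane protein related to Notch ligands and known from fetal liver, read -1.87 on day 0, -0.69 on day 5 and 1.62 on day 7. It was 2.28-fold higher on day 5 than on day 0 and 11.3-fold higher on day 7 than on day 0. The second Dlk1 probe gave log2 differences of 0.38 for day 5 minus day 0, within 2-fold, and 2.70 for day 7 minus day 0. Dio3, the paternally expressed deiodinase that inactivates thyroid hormone, read -2.21 on day 0, -2.86 on day 5 and -3.42 on day 7, and was 2.31-fold lower on day 7 than on day 0.

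Meg3, the maternally expressed noncoding RNA of that locus, is often watched in ES cell cultures because it can be silenced on both copies there. It was well above background with all 3 probes on every day. The probes are printed in their order along the plus strand of chromosome 12, at chr12:110787974-110796459, chr12:110797172-110797231 and chr12:110799558-110799617 of mm9.
Meg3 probe 1: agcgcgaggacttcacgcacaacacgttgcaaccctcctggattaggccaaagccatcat
Meg3 probe 2: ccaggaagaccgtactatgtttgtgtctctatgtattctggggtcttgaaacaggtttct
Meg3 probe 3: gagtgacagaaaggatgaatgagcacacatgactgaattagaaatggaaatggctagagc
Probe 1, used for the gene, read 3.90 on day 0, 4.79 on day 5 and 4.73 on day 7. It was 1.87-fold higher on day 5 and 1.78-fold higher on day 7 than on day 0, short of 2-fold on this scale. With quantile normalisation it passed 2-fold on both days, at log2 differences of 1.14 and 1.11, as it did in the authors' deposited table, at 1.15 and 1.11. On the main scale only probe 2 passed 2-fold, with log2 differences of 1.25 and 1.30 for day 5 and day 7 minus day 0, while probe 3 gave 0.71 and 0.46. Noncoding RNAs farther along the same cluster, Rian and Mirg, were also within 2-fold of day 0 on both days, at 0.80 and 0.54 on day 5 and 0.49 and -0.05 on day 7.
The first Meg3 promoter window, chr12:109540746-109541045 on the plus strand of GRCm38.p6, is printed because it also holds TGACGTCA. Capitals also mark GCGGCA, which is TGCCGC on the other strand.
Meg3 promoter window: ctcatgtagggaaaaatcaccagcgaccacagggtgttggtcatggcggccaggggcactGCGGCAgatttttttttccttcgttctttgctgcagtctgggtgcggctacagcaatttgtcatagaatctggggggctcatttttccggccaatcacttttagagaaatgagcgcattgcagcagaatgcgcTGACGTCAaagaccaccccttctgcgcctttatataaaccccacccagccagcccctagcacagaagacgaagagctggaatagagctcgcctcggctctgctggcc
TGCCGC, the core of the methylated sequence that the zinc finger protein Zfp57 binds, was found on either strand in 23.2% of the 56 imprinted windows and in 11.6% of all windows. Windows of Mest that start at 30737800 and 30737803 of chromosome 6 are largely 1 sequence, and both are counted with it. The imprinted windows had a median of 15 CG dinucleotides, against 7 in all windows, so CG-rich motifs have more room to occur in them.

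Plagl1, a paternally expressed zinc finger transcription factor of fetal tissues, had its lowest signal on day 5. It read -0.31 on day 0, -1.63 on day 5 and 2.40 on day 7. That made it 2.49-fold lower on day 5 than on day 0, and 16.4-fold higher on day 7 than on day 5. Day 7 was 6.58-fold above day 0. Its other probe followed the same course at smaller size, with log2 differences of -1.03 for day 5 minus day 0 and 2.59 for day 7 minus day 5.

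The Kcnq1 locus, with 9 genes known as maternally expressed in embryo or placenta, had no common course. Cdkn1c, the cell cycle inhibitor p57, read 1.52 on day 0, 1.35 on day 5 and 3.49 on day 7, and was 3.90-fold higher on day 7 than on day 0. Phlda2, a PH domain protein that limits placental growth, read 4.68 on day 0, 2.25 on day 5 and 4.20 on day 7. It was 5.38-fold lower on day 5 than on day 0 and within 2-fold of day 0 on day 7. Its other probe, which shares 50 bases with the first, gave log2 differences of -2.42 and -0.38 for days 5 and 7 against day 0. Osbpl5, an oxysterol-binding protein relative, read -0.36, 2.32 and 1.94 on days 0, 5 and 7 and was 6.37-fold higher on day 5 and 4.92-fold higher on day 7 than on day 0.

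Among the lower genes of that locus was Tspan32, a tetraspanin, at -1.77 on day 0, -5.53 on day 5 and -3.79 on day 7. It was 13.6-fold lower on day 5 and 4.05-fold lower on day 7 than on day 0. Its second probe was 2.71-fold lower on day 5 and within 2-fold on day 7. With a background correction fitted again from the raw spot signals, the day 5 log2 difference was -2.73 in place of -3.76. Slc22a18, an organic cation transporter-like protein, read 1.14, 0.20 and -0.25 on days 0, 5 and 7, and was 2.62-fold lower on day 7 than on day 0, while its second probe stayed within 2-fold at a log2 difference of -0.93. Ascl2, a transcription factor of trophoblast, was 2.43-fold lower on day 7 than on day 5, and within 2-fold (a log2 difference of -0.88) with the refitted correction. Kcnq1, a potassium channel, Tssc4 and the tetraspanin Cd81 stayed within 2-fold in every comparison, with log2 differences between -0.12 and 0.46. Kcnq1ot1, the noncoding RNA that silences this locus on the paternal copy, was within 2-fold of day 0 by its representative probe, at 0.37 on day 5 and -0.02 on day 7. Another of its probes, above background on all arrays, was 3.63-fold higher on day 5 than on day 0 and 2.31-fold lower on day 7 than on day 5. A further probe above background on all arrays stayed within 2-fold of day 0, at 0.43 on day 5 and 0.13 on day 7. The remaining Kcnq1ot1 probes were not well above background on any array.

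**Figure D3:**
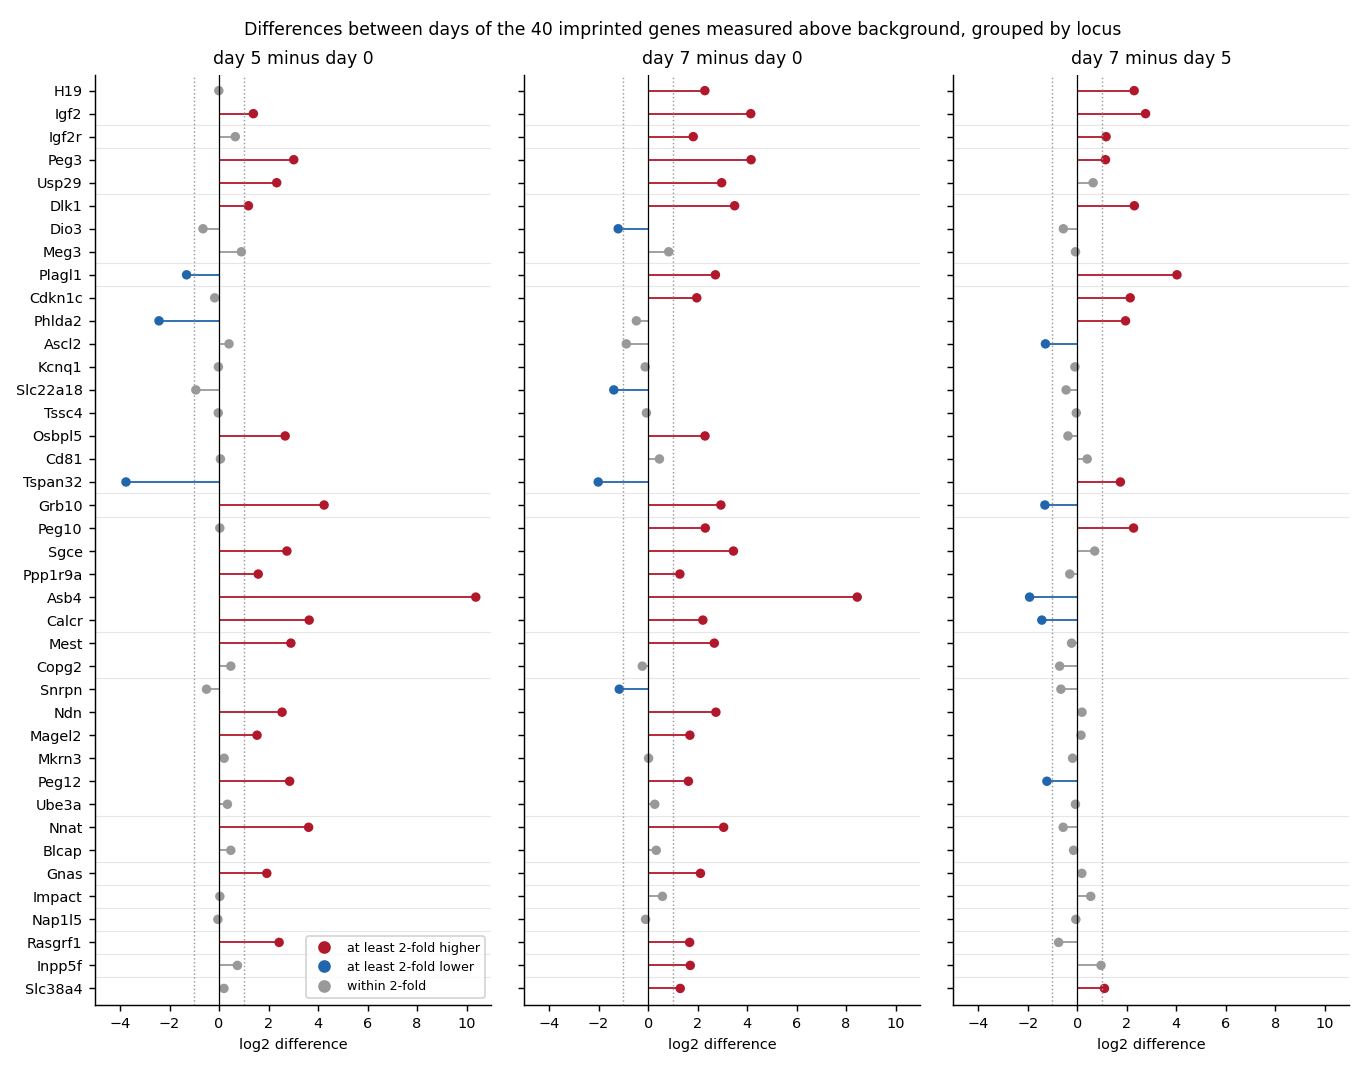
Log2 difference between days (horizontal axis) of the 40 imprinted genes measured above background, grouped by locus, for day 5 minus day 0, day 7 minus day 0 and day 7 minus day 5. Dotted lines mark 2-fold, red points are at least 2-fold higher, blue points at least 2-fold lower and grey points within 2-fold; Asb4 has the largest value, 10.37 on day 5 against day 0.

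All 5 genes of the Peg10-Sgce locus were higher on day 7 than on day 0 by the probe used for each, although the probes of Ppp1r9a disagreed. Asb4, a maternally expressed ankyrin repeat protein with a SOCS box, read -6.33 on day 0, close to the lowest signals marked above background, 4.05 on day 5 and 2.12 on day 7. The differences were 1327-fold for day 5 and 350-fold for day 7 against day 0, and they depend on the background subtracted on day 0. With the refitted correction the log2 differences were 8.38 and 6.47 in place of 10.37 and 8.45. The second Asb4 probe, not well above background on day 0, stood at least 201-fold above that level on day 5. On day 7 the bound was at least 44.0-fold. Between the later days Asb4 was 3.80-fold lower on day 7 than on day 5.

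Sgce, the paternally expressed epsilon-sarcoglycan, read 1.39 on day 0, 4.13 on day 5 and 4.84 on day 7, and was 6.68-fold higher on day 5 and 10.9-fold higher on day 7 than on day 0. Its neighbour Peg10, a retrotransposon-derived gene needed in the placenta, did not follow it on day 5. Peg10 read -2.70, -2.67 and -0.40 on days 0, 5 and 7, level on day 5 and 4.95-fold higher on day 7 than on day 0. Calcr, the calcitonin receptor, read -3.74, -0.10 and -1.53, which was 12.5-fold higher on day 5 and 4.63-fold higher on day 7 than on day 0. The second Calcr probe, dim on day 0, gave bounds of 1.35 on day 5 and 0.18 on day 7 (log2). Ppp1r9a, the actin-binding protein neurabin, has 6 probes that disagreed in direction. The one used for the gene had log2 differences of 1.58 for day 5 and 1.28 for day 7 against day 0, while a probe at chr6:5110386-5110445 of mm9 had -1.40 and -1.73. In the counts, Ppp1r9a stands as higher than on day 0 on both later days by the probe used. No direction is claimed for Ppp1r9a as a whole.

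Mest, a paternally expressed hydrolase fold protein of mesoderm and its derivatives, read 3.03 on day 0, 5.94 on day 5 and 5.71 on day 7. It was 7.47-fold higher on day 5 and 6.38-fold higher on day 7 than on day 0. Copg2, the coatomer subunit whose gene overlaps the end of Mest on the other strand, stayed within 2-fold of day 0, with log2 differences of 0.47 and -0.24.

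The Snrpn-Ube3a locus is the mouse counterpart of the human Prader-Willi and Angelman region. Of its paternally expressed genes, Ndn, Magel2 and Peg12 were higher after differentiation. Ndn, the MAGE family protein necdin, read -2.91 on day 0, -0.36 on day 5 and -0.17 on day 7, or 5.84-fold and 6.67-fold higher on days 5 and 7 than on day 0. Magel2, of the same family, read -4.44, -2.90 and -2.75, which gave log2 differences of 1.53 and 1.69 against day 0. For Magel2 the refitted correction gave 0.93 on day 5, within 2-fold. Peg12, a Frat family inhibitor of the kinase GSK3, read -2.66, 0.19 and -1.04, was 7.22-fold higher on day 5 than on day 0 and 2.34-fold lower on day 7 than on day 5.

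Snrpn, a core protein of small nuclear ribonucleoproteins, went the other way. It read 2.57 on day 0, 2.07 on day 5 and 1.41 on day 7, and was 2.24-fold lower on day 7 than on day 0. The Snurf probe, from the same transcription unit, had a log2 difference of -1.1 for day 7 minus day 0. The 2 Snrpn probes overlap by 43 bases, of which 2 differ, and binding of RNA from the close relative Snrpb was not separated here. Mkrn3, a makorin RING finger protein, and Ube3a, a ubiquitin ligase imprinted in neurons, stayed within 2-fold, with log2 differences between -0.19 and 0.34.

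Nnat, neuronatin, a small membrane protein expressed from the paternal copy, lies inside an intron of Blcap. It read -1.95 on day 0, 1.67 on day 5 and 1.1 on day 7, or 12.3-fold and 8.29-fold higher on days 5 and 7 than on day 0. Blcap was within 2-fold, with log2 differences of 0.47 and 0.33. The gene and its host thus differed on the same arrays.

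The Gnas locus makes the stimulatory G protein alpha subunit and, from upstream promoters, transcripts that are imprinted differently. The sequences of 3 of its 8 probes are printed because probes in different parts of the locus gave different calls. The first pair lie near the end of the locus, at chr2:174167177-174167338 and chr2:174167396-174168725 of mm9, each spanning more genome than its own length. The third lies upstream at chr2:174125482-174125541.
Gnas end probe 1: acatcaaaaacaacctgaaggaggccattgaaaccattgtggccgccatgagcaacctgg
Gnas end probe 2: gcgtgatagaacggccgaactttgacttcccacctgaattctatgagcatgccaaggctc
Gnas upstream probe: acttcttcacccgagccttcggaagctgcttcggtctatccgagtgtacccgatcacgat
End probe 2, used for the gene, read 1.77 on day 0, 3.70 on day 5 and 3.88 on day 7, and was 3.81-fold higher on day 5 and 4.33-fold higher on day 7 than on day 0. End probe 1 gave 4.25-fold and 4.71-fold, and a probe at chr2:174158317-174158376 gave 4.51-fold and 4.33-fold. The upstream probe read -6.41 on day 0 and fell below the background mark on both later days. The 3 other probes measured on all arrays stayed within 2-fold of day 0, with log2 differences from -0.31 to 0.62 on day 5 and from -0.34 to 0.22 on day 7. Their signals lay between -6.40 and -5.45 over the days. The lowest signals marked above background were -6.79, -6.76 and -7.04 on days 0, 5 and 7. One probe with no position in the files was not well above background on any day. The 3 probes that were higher are therefore those nearest the end of the locus. The mapped probes farther upstream were all near the background, so they say little about a change there.

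**Figure D4:**
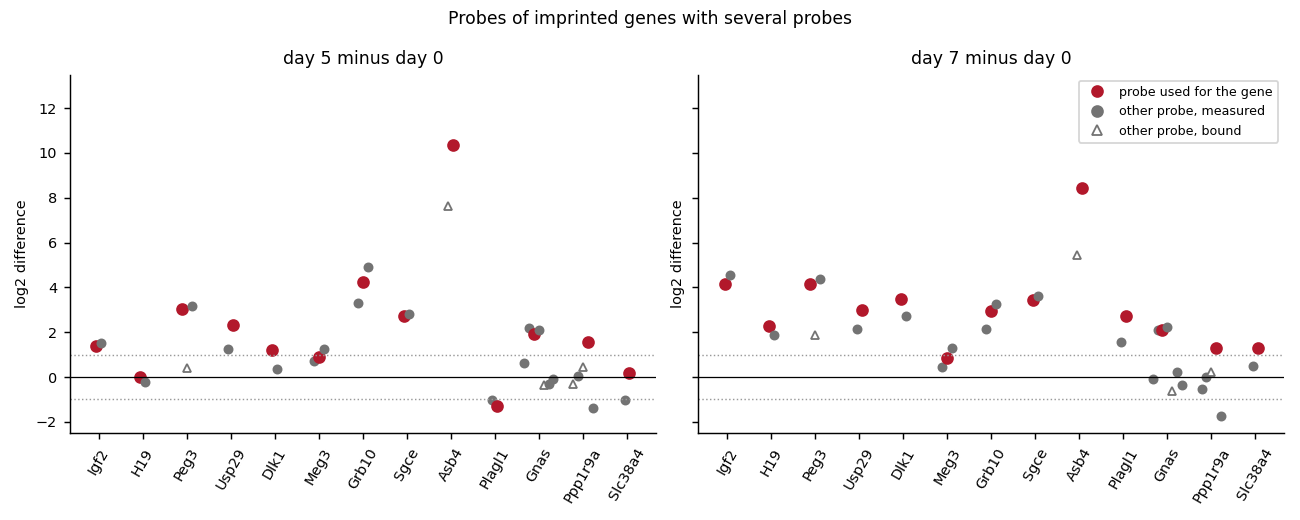
Log2 difference (vertical axis) of each probe for 13 imprinted genes with several probes, for day 5 minus day 0 (left) and day 7 minus day 0 (right), with dotted lines at 2-fold. Red points are the probe used for the gene, grey points the other probes, and open triangles bounds from probes not well above background on the dimmer array. All probes of Igf2, Grb10 and Sgce lie above the upper line in both panels, while Gnas has probes above and within the lines and Ppp1r9a has probes above, within and below them.

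Loci with 1 gene each varied. Slc38a4, an amino acid transporter of liver and placenta, read 0.69 on day 0, 0.89 on day 5 and 1.99 on day 7, and was 2.46-fold higher on day 7 than on day 0. Its other probe was within 2-fold there, at a log2 difference of 0.47, and was lower on day 5 than on day 0, at -1.05. Inpp5f, a phosphoinositide phosphatase with an imprinted isoform, read 0.29, 1.03 and 1.99 and was 3.26-fold higher on day 7 than on day 0. Rasgrf1, a Ras exchange factor, read -6.22, -3.79 and -4.54. It had log2 differences of 2.43 and 1.68 against day 0, which with the refitted correction were 1.01 and 0.53, so its day 7 call did not hold. Impact, an inhibitor of the kinase Gcn2, and Nap1l5, of the nucleosome assembly protein family, stayed within 2-fold in every comparison, between -0.10 and 0.58. Nap1l5 was near the background on all 3 days, at -6.34, -6.39 and -6.44.

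The genes were also counted by the copy from which they are known to be expressed. Of 20 paternally expressed genes, 11 were higher and 1 lower on day 5 than on day 0, and 14 were higher and 2 lower on day 7 than on day 0. Among all names, 16.5% were higher and 16.1% lower on day 5, and 16.2% higher and 19.1% lower on day 7, than on day 0. Of 11 maternally expressed genes, 2 were higher and 1 lower on day 5, and 5 were higher and 1 lower on day 7, in the same comparisons, so that their 18.2% higher on day 5 was close to the share of all names. Of 9 known as maternal only in placenta or brain, 3 were higher and 1 lower on each day. The median log2 difference for day 7 minus day 0 was 2.31 for the paternal genes, 1.33 for the maternal genes and 0.36 for the tissue-limited ones. Between day 7 and day 5, beside 5.97% higher and 8.38% lower among all names, 6 paternal genes were higher and 1 lower on day 7. Of the maternal genes, 4 were higher and 2 lower. The difference between these classes was not tested.

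Genes beside the loci and other imprinted genes were called at the same 2-fold limit, as 2 sets that overlap. The nearest named gene well above background on at least 1 array, on each side of the 17 loci, made a set of 34. Dimmer genes beside the loci were thus passed over, whereas the lists of imprinted genes keep theirs. Some of the set, such as Th on day 5, were counted as higher only from a bound. Among the set, 6 genes (Atp10a, Ddc, Ins2, Klf14, Th and Zim2) are themselves on a further list of genes reported as imprinted. Of the 34, 6 were higher and 7 lower on day 5 than on day 0, beside 16.5% and 16.1% of all names. On day 7, 11 were higher and 5 lower than on day 0, beside 16.2% and 19.1%. Their median measured log2 difference was -0.02 on day 5 and -0.26 on day 7. The further list of 38 genes reported as imprinted in mouse, 31 of them with a probe, had 5 higher and 8 lower on day 5 than on day 0, and 6 higher and 5 lower on day 7 than on day 0. Its largest measured differences on day 7 against day 0 were those of Pon2, a paraoxonase, 9.68-fold higher, and Jade1, 8.58-fold lower.

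In a list of imprint maintenance and DNA methylation factors, more were lower than higher, and 10 were within 2-fold in each comparison with day 0. The list also holds the Tet enzymes, which oxidise 5-methylcytosine, and Zfp42, which was counted among the pluripotency markers too. Of 24 such genes, 3 were higher and 10 lower on day 5 than on day 0, against 16.5% and 16.1% of all names. On day 7, 2 were higher and 11 lower than on day 0, against 16.2% and 19.1%. Dnmt3l, a cofactor that guides new DNA methylation in germ cells, read 5.11 on day 0, -0.76 on day 5 and -3.25 on day 7. Dppa3, which shields methylation in the early embryo, read 2.28, -2.43 and -5.79 on the same days. The 2 higher genes on day 7 were Dnmt3b, a methyltransferase, at 2.15-fold, and Tet3, an enzyme that oxidises 5-methylcytosine, at 5.85-fold. Zfp57 and its partner Trim28, which hold methylation at imprinting control regions, were picked out with their values already seen. Zfp57 read 1.72 on day 0, -0.72 on day 5 and -1.14 on day 7, and was 7.29-fold lower on day 7 than on day 0. Trim28 was 3.45-fold lower on day 7 than on day 0. DNA methylation was not measured.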

How the data were processed

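Per the file headers, the authors extracted 1 array per day with Agilent Feature Extraction 10.5.1.1, and the deposited scanner files give the processed signal (intensity, background-corrected by that software), the mean signal and the local background as intensity. The authors' deposited value table holds log2 values whose columns correlated with the scanner log2 signals at 0.9998 or above, each with a median of 7.1678; how they were equalised was not given in the sources used here. Control spots and flagged spots (104 to 149 per array) were left out, spots of a probe averaged, and each array's 75th percentile of log2 signal subtracted. Between 70.9% and 71.7% of the 43379 gene spots on each array passed that software's background mark, and none was saturated. The number of arrays limits the precision. All 3 arrays lay on 1 slide.

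Probes were named through RefSeq accessions (24844), symbols (6045) or the file's own name (10285). The probe well above background on the most arrays, then the brightest, stood for a gene. A dim value was replaced by the higher of itself and the lowest signal well above background, which gives "at least N-fold". Alternatives used limma 3.58.1 in R 4.3.3 (normexp, offset 50), quantile and median scaling, the authors' table, the median over probes, filters and other fold limits. Every imprinted gene was named whatever its value. Of the other lists, up to 4 genes with the largest measured differences in each direction were eligible, as were the first 4 of each marker list. Zfp57, Trim28, Rian, Mirg, Kcnq1ot1 and Snurf were named outside that rule, after their values were seen. Also outside it were Sparc and Vim, named as largest contributors to a sum, and Fap, Synb, Prl2c2, Gcm1 and Syna, named for lack of a signal or probe. Members, lists and rules were chosen with earlier results of these data known. Probe positions are those of mm9 in the files.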

Additional observations from a re-analysis of the deposited data

How the results depend on the processing

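Of 64 calls of 2-fold among the imprinted genes, 40 held under all 9 alternatives of scaling, background, probe choice and filter, and 55 under all but the first normexp correction. That correction, as fitted on all spots, was pulled by the 7, 36 and 6 spots of days 0, 5 and 7 whose local background exceeded their signal: its fitted background mean was -1242, -12.7 and -344.5, against 4.495, 0.52 and 1.91 in the refitted correction, which was added after the data were seen and reversed none. Under the first correction, the log2 differences for day 5 minus day 0 became -0.063 (Usp29), -2.06 (Ascl2), -1.71 (Peg10), -1.73 (Magel2), -1.05 (Mkrn3) and -2.22 (Rasgrf1). For day 7 minus day 0 they became -0.23 (Calcr), -0.90 (Magel2) and -1.37 (Rasgrf1), and for day 7 minus day 5 they became 0.58 (Ascl2), 1.19 (Kcnq1) and 1.86 (Nap1l5). Calls also lost under it were those of Dlk1, Calcr and Ndn for day 5 against day 0, of H19, Usp29, Peg10, Ndn, Peg12, Snrpn and Slc22a18 for day 7 against day 0, and of Peg3 and Slc38a4 for day 7 against day 5. The count of genes lower on day 5 than on day 0 became 12, where 44.2% of all names were lower (median -0.63), and the median for day 7 minus day 0 became 0.79, where that of all genes was -0.58. Meg3 passed 2-fold under it, at 1.61 on day 5 and 1.33 on day 7, and under quantile normalisation and the authors' table. Median centring brought Slc22a18 (-1.05, day 5 minus day 0) and Inpp5f (1.12, day 7 minus day 5) past 2-fold, and the median over probes Rasgrf1 (-1.24, day 7 minus day 5). With the median over probes, Gnas had -0.052 on day 5 and -0.057 on day 7, and Ppp1r9a -0.19 on day 7, against day 0. At 1.5-fold, 5 genes were lower on day 5 than on day 0, against 27.6% of all names, and 8 lower on day 7 than on day 5, against 16.2%. At 3-fold, 1 was lower on day 7 than on day 0, against 9.98%, and 1 on day 7 than on day 5, against 3.99%. No paired analysis was possible because each day has 1 array. Folds of genes near the background on day 0, such as Rasgrf1 and Asb4, rest on small signals.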
